A study of Mus musculus with 15 samples.

Results

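Transcripts of the genes that restrain the mitogen-activated protein kinase (MAPK) pathway, and of the immediate early genes that the pathway switches on, were measured in mouse anterior prostate. The set was chosen by gene name on the array: every name starting with Dusp, Spry or Spred and a digit, together with Phlda1, Phlda2, Phlda3, Etv1, Etv4, Etv5, Fos, Fosb, Fosl1, Jun, Junb, Egr1, Myc, Ier3 and Errfi1. This gave 43 genes of 28906 gene names, on 71 of 45281 probes; no probe carried the name Fosl1. Illumina BeadArrays, which read the brightness of beads coated with gene-specific probes, gave 1 array for each of 15 mice. Castrated mutant mice (n = 6) and intact mutant mice (n = 6) were Nkx3.1CE2/+; Ptenf/f, and intact control mice (n = 3) were Nkx3.1CE2/+. CE2 is known as an inducible Cre recombinase inserted into a prostate epithelial gene, and every mouse carried it, the controls too. The mutant mice carried floxed tumour suppressor alleles in addition. The labels list no treatment, and they do not say how or whether Cre was induced. The sources used here do not give ages or the time since castration. No castrated control mice were analysed here, so castration was compared within the mutant genotype alone.

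Growth factor receptors activate Ras, Raf, MEK and ERK in turn, and ERK then drives transcription of immediate early genes such as Fos and Egr1 within minutes. The same signal induces its own brakes. Dual specificity phosphatases remove phosphate from ERK, JNK or p38, Sprouty and Spred proteins act between the receptor and Raf, and Errfi1 blocks receptors of the EGF receptor family. Transcripts of these brakes are widely read as a record of pathway activity, and most of them are short-lived. Several also respond to stress and to tissue handling.

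All levels below are log2 intensities of the authors' processed values, so a difference of 1 is a doubling. A probe was taken as above background on an array if it was brighter than 95% of 1468 probes for olfactory and vomeronasal receptors, a limit between intensities of 153.9 and 166.1. A gene was tested if its brightest probe passed this limit on at least 3 arrays, which left 37 of the 43 members and 16719 genes in all. The other members, Dusp9, Dusp12, Dusp13, Dusp21, Spry2 and Spry3, were above the limit on 0 to 2 arrays and have no measured level here. A gene is said to have risen or fallen only where limma, fitted over all tested genes and adjusted by the Benjamini-Hochberg method, gave an adjusted p under 0.05. The luminal keratins that define the glandular cells were bright on every array: Krt8 lay between 14.63 and 14.83 in castrated mutant, 14.04 and 14.80 in intact mutant, and 13.28 and 13.49 in control prostates. 2 arrays of each group were high in the seminal vesicle transcript Pate4 (13.84 to 15.44), by which they were chosen. They are called high in seminal vesicle transcripts below, where the calls that were lost without them are named. Among them, the summed intensity of 6 seminal vesicle markers was 97042 to 141989 on control and intact mutant arrays. It was 20271 and 21727 on castrated mutant arrays. In whole tissue, fewer cells of a type and less RNA per cell cannot be told apart.

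The first comparison asked how the mutant genotype altered these transcripts in intact mice. Of the 37 members tested 16 rose (43.2%) and 5 fell (13.5%) in intact mutant over control prostates. Over all tested genes 18.2% rose and 25.4% fell in the same fit. The median log2 fold change was 0.14 over the members and -0.04 over all genes. Members called with a change of at least 2-fold numbered 12 of 37 (32.4%), beside 2192 of the 16719 genes. The calls were uneven across families. Of 19 tested dual specificity phosphatases 8 rose, Dusp18 among them at the edge of background, and 4 fell, at a median log2 fold change of 0.0035. Of the others, 5 of 7 immediate early genes, 2 of 3 Phlda genes and Errfi1 rose. The rises were 0 of 3 for Spred genes and 0 of 3 for PEA3 family ETS factors, and the single Sprouty gene measured, Spry4, did not rise. Spred2, Spred3 and Etv4 were above background on only 6, 9 and 7 of 15 arrays, and Spry4 was close to it. Missing calls for these dim genes say little about their families. Leaving out the arrays high in seminal vesicle transcripts, which leaves 1 control array, lowered the count to 7 higher and 3 lower. The calls lost were those of Dusp1, Dusp2, Dusp6, Dusp7, Dusp14, Dusp18, Dusp23, Egr1, Errfi1, Fos and Myc, all in the same direction as before. The adjusted p was 0.0506 for Dusp2, 0.464 for Dusp7 (log2 fold change 0.38), 0.228 for Dusp14 (0.41) and 0.180 for Dusp18, and the values of the others stand beside them.

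Phlda1, which encodes a pleckstrin homology-like protein induced by growth factor signalling, had the largest difference among the members. Its level was 11.78, 12.44 and 13.02 (lowest, median and highest) in castrated mutant prostates and 12.70, 13.01 and 13.50 in intact mutant prostates, against 9.50, 10.20 and 10.40 in the 3 control prostates. In such lists here and below, mutant values are the lowest, median and highest, and control values are the 3 arrays in replicate order. Every mutant array was above every control array. The intact mutant level was 8.12-fold higher than control (log2 fold change 3.02 ± 0.26 SE, adjusted p = 3.07e-07), which placed Phlda1 at rank 146 of 16719 genes ordered from the highest log2 fold change. Phlda3, a p53 target that competes with Akt for membrane lipids, was at 9.24, 9.69 and 10.13 in castrated mutant and 9.90, 10.32 and 10.40 in intact mutant prostates, against 8.96, 8.998 and 8.81 in control. It rose 2.53-fold in intact mutant mice (1.34 ± 0.16, adjusted p = 7.70e-06), again with no overlap with control. A second Phlda3 probe, above background on all 15 arrays, rose by 1.17 (adjusted p over all tested probes = 0.0421). Phlda2, an imprinted relative best known as a growth restraint in placenta, went the other way in value (-0.47 ± 0.21) without passing the test (adjusted p = 0.0807).

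**Figure D1:**
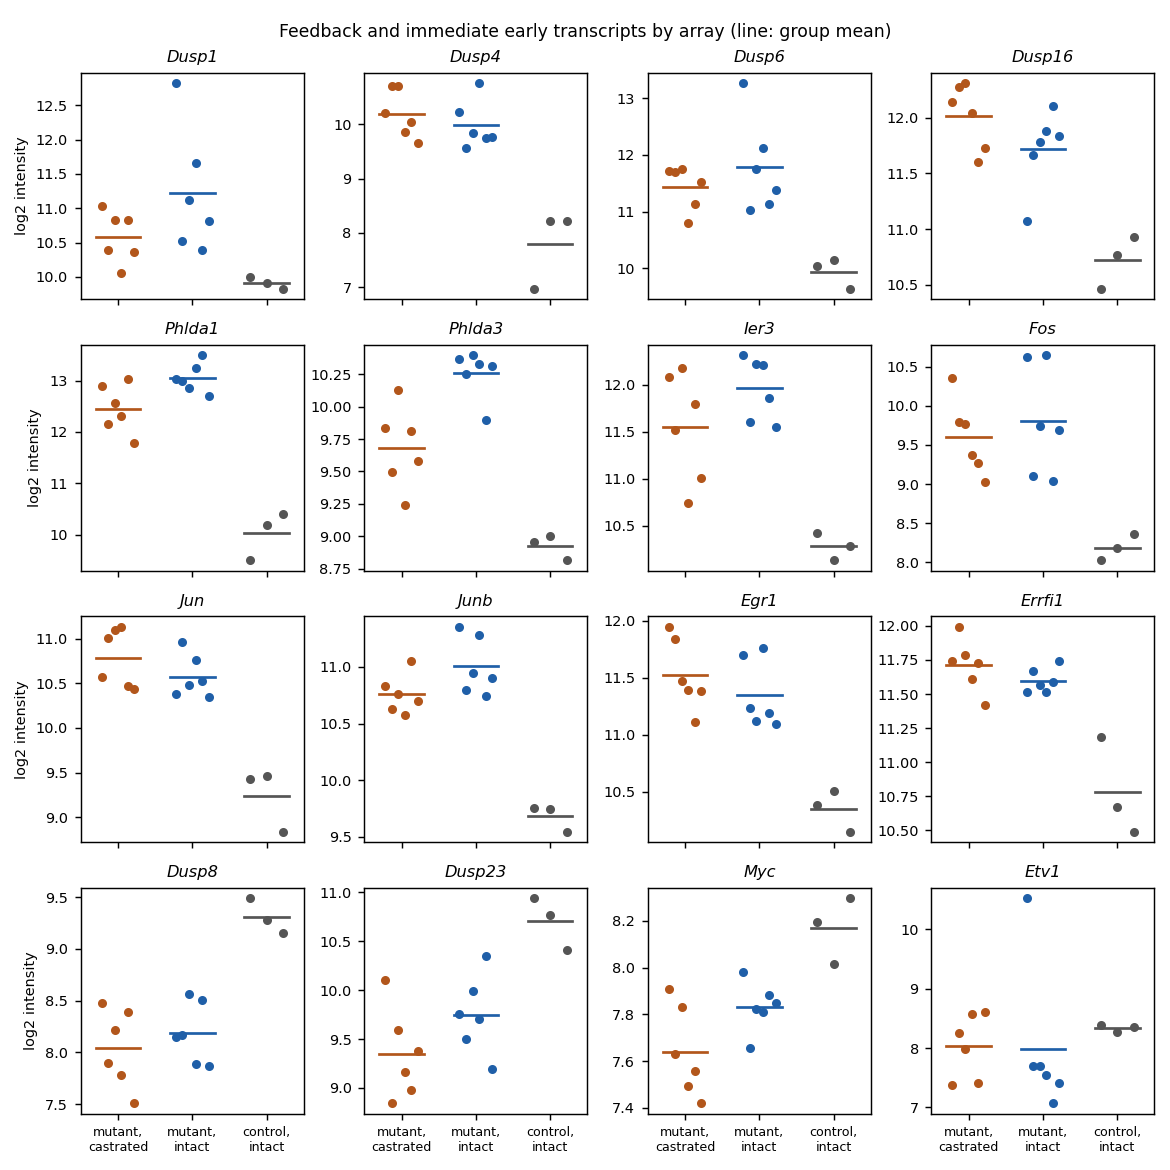
Log2 intensity (vertical axes, each with its own range) of 16 members on each array, with castrated mutant (n = 6), intact mutant (n = 6) and intact control (n = 3) groups from left to right. Points are single arrays in replicate order and lines are group means. The mutant points lie above all control points for Dusp1, Dusp4, Dusp6, Dusp16, Phlda1, Phlda3, Ier3, Fos, Jun, Junb, Egr1 and Errfi1. They lie below all control points for Dusp8, Dusp23 and Myc.

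Among the phosphatases, the nuclear enzyme Dusp4 changed most. It was at 9.66, 10.12 and 10.70 in castrated mutant and 9.56, 9.80 and 10.75 in intact mutant prostates, against 6.97, 8.22 and 8.22 in control, where 2 of 3 arrays were above background. Mutant and control arrays did not overlap. The rise was 4.54-fold in intact mutant mice (2.18 ± 0.32, adjusted p = 5.60e-05). The other Dusp4 probes gave 1.21 (adjusted p over all tested probes = 0.00337) and 0.32 (0.166), so the size of the change depended on the probe.

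Dusp6, the cytoplasmic phosphatase specific for ERK, had levels of 10.80, 11.61 and 11.75 in castrated mutant and 11.03, 11.57 and 13.26 in intact mutant prostates, against 10.04, 10.14 and 9.64 in control. All mutant arrays were above all control arrays, and replicate 1 of the intact mutant group stood far above the rest. Dusp6 rose 3.59-fold in intact mutant mice (1.84 ± 0.39, adjusted p = 0.00126), and by 1.55 on the log2 scale (adjusted p = 0.000236) without that array. The other Dusp6 probes rose by 1.49 and 0.94. Without the arrays high in seminal vesicle transcripts the log2 fold change was 1.94 and the adjusted p 0.0946.

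Dusp1, a nuclear phosphatase of JNK, p38 and ERK that is itself an immediate early gene, was at 10.05, 10.61 and 11.03 in castrated mutant and 10.38, 10.97 and 12.82 in intact mutant prostates, against 9.99, 9.91 and 9.83 in control. The mutant arrays were all higher than the controls, but they spread widely, and intact mutant replicate 1 was the highest. Dusp1 rose 2.48-fold in intact mutant mice (1.31 ± 0.41, adjusted p = 0.0170). The call was lost without control replicate 3 (1.27, adjusted p = 0.0563) and without the arrays high in seminal vesicle transcripts (1.43, adjusted p = 0.241).

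Dusp16, a phosphatase that acts on JNK and p38, was at 11.60, 12.09 and 12.31 in castrated mutant and 11.07, 11.81 and 12.11 in intact mutant prostates, against 10.46, 10.77 and 10.93 in control. Here intact mutant replicate 1 was the lowest of the mutant arrays, the reverse of its place for Dusp1 and Dusp6. Dusp16 rose 2.01-fold (1.004 ± 0.204, adjusted p = 0.000979), and 2 further probes above background on all 15 arrays rose by 0.86 and 0.78. Dusp2, an inducible nuclear phosphatase best known in immune cells, was above background on all 12 mutant arrays and on none of the 3 control arrays, and was at least 1.36-fold higher in intact mutant than in control prostates (adjusted p = 0.000533). Smaller rises were seen for Dusp14 (0.48 ± 0.13, adjusted p = 0.00746) and for the ERK phosphatase Dusp7 (0.48 ± 0.17, adjusted p = 0.0366). Dusp7 lost its call without any of 5 single arrays, control replicates 2 and 3 and intact mutant replicates 1, 4 and 6 (log2 fold change 0.38 to 0.51). Dusp14 lost it without control replicate 3 (0.34, adjusted p = 0.0654). Dusp18 passed the test at the edge of background, above the limit on 3 castrated mutant, 1 intact mutant and 0 control arrays, and no fold is given.

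4 phosphatases fell. Dusp8, which acts on JNK and p38, was at 7.51, 8.06 and 8.47 in castrated mutant and 7.87, 8.16 and 8.56 in intact mutant prostates, against 9.49, 9.28 and 9.15 in control. Mutant and control arrays did not overlap, and Dusp8 was 2.17-fold lower in intact mutant mice (-1.12 ± 0.21, adjusted p = 0.000491). A further probe, deposited under an older name that RefSeq now gives to Dusp8, differed by -1.16 (adjusted p = 0.000203). The small atypical phosphatase Dusp23 was at 8.84, 9.27 and 10.11 in castrated mutant and 9.20, 9.73 and 10.35 in intact mutant prostates, against 10.94, 10.77 and 10.41 in control, a difference of -0.95 ± 0.26 (adjusted p = 0.00862). Dusp23 just failed the test without control replicate 1 (-0.84, adjusted p = 0.0501), and failed it without the arrays high in seminal vesicle transcripts (-1.19, adjusted p = 0.138). The second Dusp23 probe, above background on all 15 arrays, did not pass at -0.72 (adjusted p over all tested probes = 0.0601). Dusp26 fell by 0.86 on the log2 scale (adjusted p = 2.07e-05) and Dusp28 by 0.79 (adjusted p = 0.000140). Both are atypical phosphatases. Dusp26 was above background on 3 of 3 control arrays but on only 1 of 6 in each mutant group, so its mutant levels are mostly those of background and the size of its fall is uncertain.

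The other phosphatases showed no call in intact mutant prostates. Dusp10, Dusp15, Dusp19, Dusp22 and Dusp27 differed from control by -0.21 to 0.14. Dusp11, an RNA phosphatase rather than a kinase phosphatase, differed by -0.29 ± 0.13 (adjusted p = 0.0936), while its second probe passed the test at -0.46. The Dusp3 probe was near background, above the limit on 7 of 15 arrays. A probe with an older name that RefSeq gives to Dusp3 was much brighter, at 10.26 ± 0.24, 10.57 ± 0.57 and 10.93 ± 0.13 (mean ± SD) in castrated mutant, intact mutant and control prostates, and did not pass the test (intact mutant over control -0.36, adjusted p = 0.297).

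**Figure D2:**
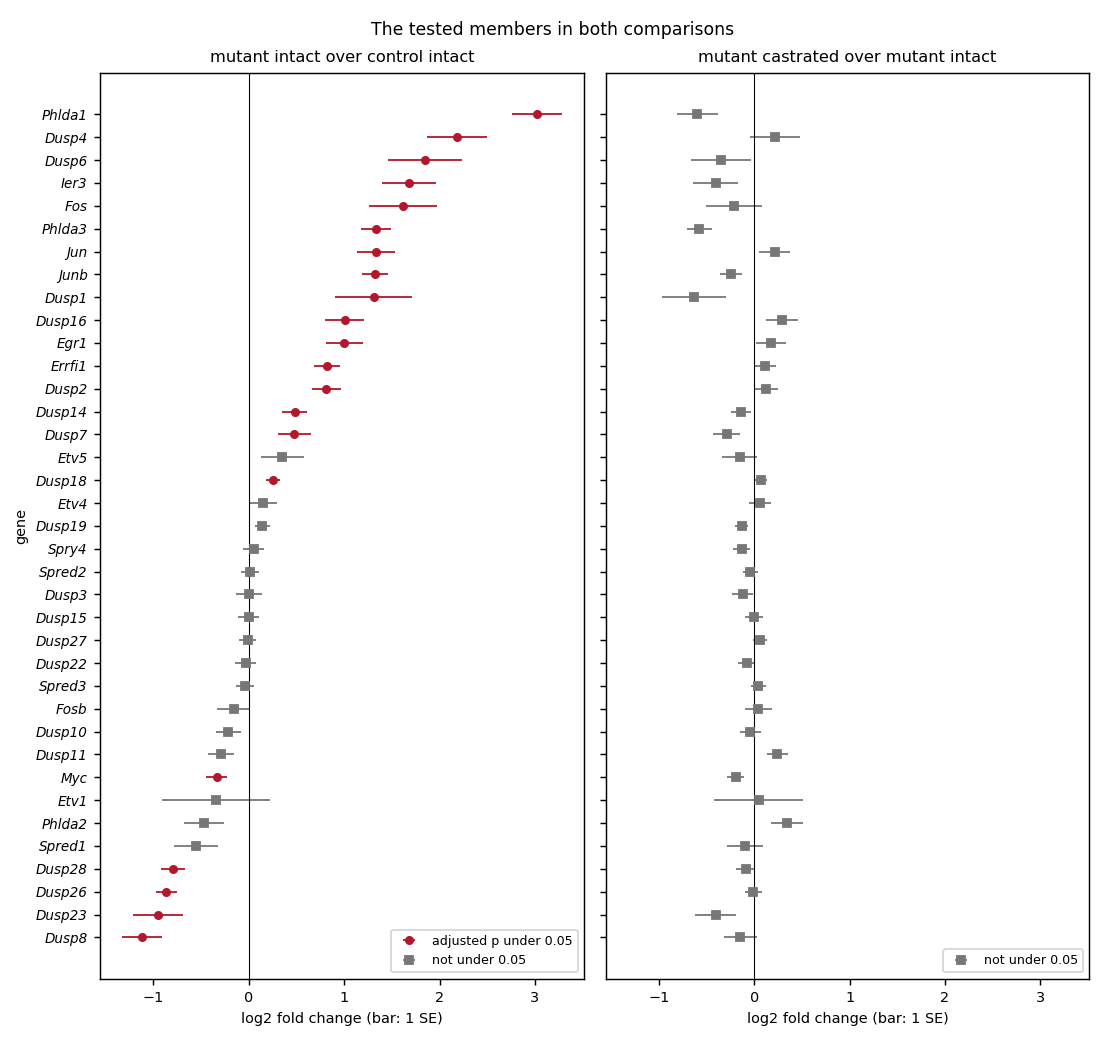
Log2 fold change with 1 SE for the 37 tested members (horizontal axis), ordered by the intact mutant over control value; the left panel compares intact mutant (n = 6) with control (n = 3) and the right panel castrated mutant (n = 6) with intact mutant (n = 6). Red circles have an adjusted p under 0.05 and grey squares do not: 21 members are red on the left, from Phlda1 at 3.02 to Dusp8 at -1.12, and none on the right.

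Of the 7 immediate early genes 5 rose in intact mutant over control prostates, Myc fell and Fosb was not called. Fos, the partner of Jun in the transcription factor AP-1, was at 9.03, 9.57 and 10.35 in castrated mutant and 9.04, 9.71 and 10.65 in intact mutant prostates, against 8.03, 8.18 and 8.36 in control. Intact mutant replicates 1 and 4 were nearly level at the top, and no mutant array reached down to the controls. Fos rose 3.08-fold in intact mutant mice (1.62 ± 0.36, adjusted p = 0.00178). Jun was at 10.44, 10.79 and 11.14 in castrated mutant and 10.34, 10.51 and 10.97 in intact mutant prostates, against 9.43, 9.46 and 8.83 in control, and rose 2.52-fold (1.34 ± 0.20, adjusted p = 6.26e-05).

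Junb, another Jun protein of AP-1, was at 10.57, 10.73 and 11.06 in castrated mutant and 10.74, 10.92 and 11.36 in intact mutant prostates, against 9.75, 9.74 and 9.54 in control. The gap between mutant and control arrays was wider than the spread within any group, and Junb rose 2.504-fold (1.32 ± 0.14, adjusted p = 2.46e-06). The zinc finger factor Egr1 was at 11.11, 11.43 and 11.95 in castrated mutant and 11.09, 11.21 and 11.76 in intact mutant prostates, against 10.38, 10.51 and 10.15 in control, a 2.004-fold rise (1.003 ± 0.192, adjusted p = 0.000589). Ier3, an early response gene linked to cell survival, was at 10.74, 11.66 and 12.18 in castrated mutant and 11.55, 12.03 and 12.32 in intact mutant prostates, against 10.42, 10.13 and 10.29 in control. It rose 3.21-fold (1.68 ± 0.28, adjusted p = 0.000208). Without the arrays high in seminal vesicle transcripts Fos (1.97, adjusted p = 0.0604) and Egr1 (1.05, adjusted p = 0.0779) kept their direction and lost the call.

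Myc, a growth-promoting transcription factor, was lower in the mutant mice: 7.42, 7.59 and 7.91 in castrated mutant and 7.66, 7.84 and 7.98 in intact mutant prostates, against 8.20, 8.02 and 8.30 in control. Mutant and control arrays did not overlap, and the difference was small (-0.34 ± 0.11, adjusted p = 0.0222). It lost its call without control replicate 1 (-0.32, adjusted p = 0.0710) or 3 (-0.27, adjusted p = 0.110), under cyclic loess scaling (-0.23, adjusted p = 0.0995) and without the arrays high in seminal vesicle transcripts (-0.32, adjusted p = 0.223). Fosb stayed near background, above the limit on 10 of 15 arrays, with a highest level of 7.997 in a control prostate.

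Promoter windows from RefSeq (GRCm38.p6, 250 bases before to 50 after the annotated start) were available for 31 of the 43 members. Of the sequences searched on both strands, the cAMP response element TGACGTCA was in 2 of 14 windows of members that rose in intact mutant mice, in 1 of 3 windows of members that fell and in 0 of 14 windows of tested members not called; 1.79% of all 32851 windows hold it. Its shorter form TGACG, which TGACGTCA contains once on each strand, was in 6 of 14, 2 of 3 and 4 of 14 of these windows, and in 20.8% of all windows. The AP-1 sequence TGANTCA, the ETS sequence CCGGAAGT and the CArG box of serum response factor were in none of these windows (7.81%, 3.89% and 1.63% of all windows), and GGG with CC 5 bases after it, the NF-κB form, was in 10 of 14, 2 of 3 and 9 of 14 (50.8% of all). A match is a run of letters and not a measured binding site. Bases more than 250 before the start were not searched, and Phlda1, Dusp4, Egr1 and Myc were among the members without a window. A sequence not found is thus missing from these windows only. The windows of Dusp1, Fos and Junb, which rose, are set beside that of Dusp8, which fell, because all 4 hold TGACG (capitals), and Dusp1 and Dusp8 hold the full element.
Dusp1, chr17:26508423-26508722, minus strand: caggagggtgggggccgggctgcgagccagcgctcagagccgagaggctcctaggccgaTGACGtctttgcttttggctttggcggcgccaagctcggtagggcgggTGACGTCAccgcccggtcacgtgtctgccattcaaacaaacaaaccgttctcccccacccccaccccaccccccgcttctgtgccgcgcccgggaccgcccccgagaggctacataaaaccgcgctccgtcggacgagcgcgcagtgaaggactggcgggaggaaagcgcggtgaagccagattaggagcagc
Fos, chr12:85473640-85473939, plus strand: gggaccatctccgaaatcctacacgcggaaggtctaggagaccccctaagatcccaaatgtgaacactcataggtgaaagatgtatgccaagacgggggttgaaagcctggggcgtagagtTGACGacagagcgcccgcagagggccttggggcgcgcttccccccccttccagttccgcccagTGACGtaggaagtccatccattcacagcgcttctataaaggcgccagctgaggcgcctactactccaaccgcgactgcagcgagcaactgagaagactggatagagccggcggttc
Junb, chr8:84978699-84978998, minus strand: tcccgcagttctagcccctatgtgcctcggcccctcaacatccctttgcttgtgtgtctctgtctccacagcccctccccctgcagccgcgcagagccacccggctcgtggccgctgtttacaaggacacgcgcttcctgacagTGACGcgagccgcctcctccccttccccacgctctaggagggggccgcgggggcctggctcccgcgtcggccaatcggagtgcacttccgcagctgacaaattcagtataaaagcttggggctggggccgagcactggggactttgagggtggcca
Dusp8, chr7:142095235-142095534, minus strand: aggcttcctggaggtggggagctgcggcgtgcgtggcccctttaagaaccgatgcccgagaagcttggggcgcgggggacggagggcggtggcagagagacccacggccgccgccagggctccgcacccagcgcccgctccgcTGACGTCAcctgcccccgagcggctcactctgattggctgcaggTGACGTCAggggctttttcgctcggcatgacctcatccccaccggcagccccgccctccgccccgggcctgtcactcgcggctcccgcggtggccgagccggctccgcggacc

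The full element was thus in windows of members of both directions, and it occurred at 2 places in that of Dusp8.

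Errfi1, which binds the EGF receptor kinase domain and blocks it, was at 11.42, 11.74 and 11.995 in castrated mutant and 11.51, 11.58 and 11.74 in intact mutant prostates, against 11.18, 10.67 and 10.49 in control. The mutant arrays were all higher, and the rise was 1.76-fold in intact mutant mice (0.82 ± 0.14, adjusted p = 0.000198). Without the arrays high in seminal vesicle transcripts it was 0.41 (adjusted p = 0.125). The Sprouty and Spred brakes did not share it. Spry4 lay between 7.35 and 7.87 on all 15 arrays, close to background. Spred2 and Spred3 were above the limit on 6 and 9 of 15 arrays and differed from control by 0.01 and -0.04.

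Spred1, a suppressor of Ras-Raf signalling, was the only Sprouty or Spred gene with a level well above background. It was at 9.87, 10.31 and 10.61 in castrated mutant and 10.04, 10.15 and 11.28 in intact mutant prostates, against 10.83, 11.002 and 10.996 in control. All mutant arrays except intact mutant replicate 1 were below the controls. With that array Spred1 differed by -0.56 ± 0.23 (adjusted p = 0.0651), and without it by -0.73 (adjusted p = 0.00140), so a single array decided the call.

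The PEA3 family factors Etv1, Etv4 and Etv5, which are ERK targets in many epithelia, did not pass the test. Etv1 was at 7.37, 8.12 and 8.60 in castrated mutant and 7.07, 7.62 and 10.52 in intact mutant prostates, against 8.38, 8.26 and 8.36 in control. The 10.52 belonged to intact mutant replicate 1; the other 5 intact mutant arrays, at 7.07 to 7.70, were all below the controls. Etv1 differed by -0.34 ± 0.57 (adjusted p = 0.661) with that array and fell by 0.85 on the log2 scale (adjusted p = 0.0174) without it. Etv5 was also highest on that array, at 8.80 against 7.54 to 7.93 on the other intact mutant arrays, and did not pass the test with it (0.35 ± 0.22, adjusted p = 0.220) or without it (0.16).

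Intact mutant replicate 1 therefore touched several members. It was the highest intact mutant array for 14 of the 37 tested members (37.8%) and for 20.0% of all tested genes. Among the 23 members above background on all 15 arrays it was the highest for 7 (30.4%). It was the lowest intact mutant array for 4 of the 37 (10.8%) and for 28.2% of all tested genes. Macrophage markers were also far higher there. The summed intensity of Cd68, Csf1r, C1qa, C1qb and Adgre1 was 57608 on that array and 4766 to 10098 on the other intact mutant arrays, against 8008 to 10712 on castrated mutant and 1809 to 2318 on control arrays. The same array had the highest basal (52416, others 33111 to 47854), T cell (1906, others 1009 to 1734) and neutrophil sums (15467, others 2556 to 14971) among intact mutant arrays, and the lowest luminal (24615, others 33303 to 39926) and prostate secretion sums (429, others 1793 to 16158). Its smooth muscle sum (5968) lay within the range of the others (3596 to 21711). The part of these cell types in the members' values was not tested.

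**Figure D3:**
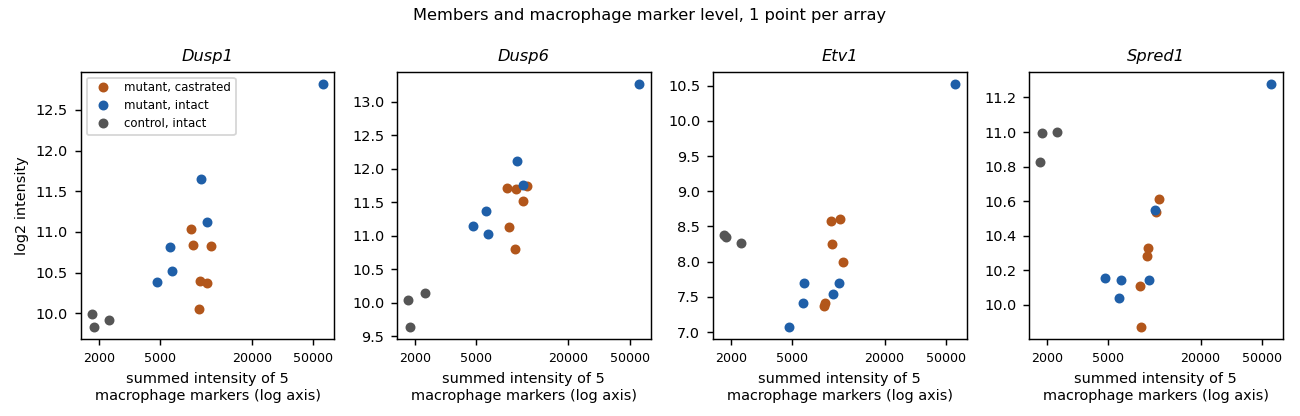
Log2 intensity of Dusp1, Dusp6, Etv1 and Spred1 (vertical axes) against the summed intensity of 5 macrophage markers on the same array (horizontal log axis), with 1 point for each of the 15 arrays, coloured by group. Intact mutant replicate 1, at a sum of 57608, lies alone at the upper right of each panel. The members shown were chosen because they were high on that array, so its place at the top follows from the choice. It was the highest intact mutant array for 14 of the 37 tested members and the lowest for 4, which are not shown.

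Other cell types also differed between mutant and control prostates. Of the markers tested, 4 of 4 basal, 4 of 5 macrophage, 3 of 4 neutrophil and 3 of 3 T cell genes rose in intact mutant mice, and 5 of 5 smooth muscle genes fell. The summed smooth muscle intensity was 3554 to 14152 in castrated mutant and 3596 to 21711 in intact mutant prostates, against 43219 to 51281 in control. The basal sum was 29949 to 50945 and 33111 to 52416 in the same mutant groups, against 4194 to 6462 in control. The neutrophil sum was 6225 to 18267 and 2556 to 15467, against 522 to 567. The summed levels of all 5 of these cell types separated mutant from control arrays without overlap. So did the luminal sum, at 38504 to 42476 in castrated mutant and 24615 to 39926 in intact mutant, against 19370 to 23425 in control. The prostate secretion sum was lower without overlap, at 395 to 9007 and 429 to 16158, against 48593 to 73030. The part of these cell types and secretions in the members' changes was not tested. The share of all tested genes that separate the arrays as single members above did was not counted.

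The rest of the pathway was read from lists of genes outside the set. Of 19 tested ligands of receptor tyrosine kinases 7 rose and 5 fell in intact mutant over control prostates, with a median log2 fold change of 0.18. Among EGF family ligands, Btc rose by 1.71 (adjusted p = 6.44e-08) and Areg by 1.51 (adjusted p = 0.00323), whereas Egf itself was at 10.13 ± 0.91 in intact mutant and 13.28 ± 0.63 in control prostates, a difference of -3.16. The fibroblast growth factor Fgf10 differed by -1.65. Of 16 tested receptors 8 rose and 2 fell, at a median of 0.39. Fgfr3 (1.77), the ephrin receptor Epha2 (1.61), Egfr (1.30) and Kit (1.15) were the largest rises.

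Within the cascade from Ras to ERK and its direct targets 5 of 26 genes rose and 8 fell, at a median of 0.03, against 18.2% and 25.4% of all genes. The adaptor exchange factor Sos2 differed by -1.24, and the ETS factor Elk3 (1.33), Nras (0.78) and the ERK-activated kinase Mknk2 (0.69) rose. Of 29 other immediate early genes 12 rose and 2 fell, at a median of 0.32. Fosl2, another Fos protein, rose by 2.96 (adjusted p = 3.40e-09), more than Fos, and Zfp36l1, which speeds the decay of short-lived mRNAs, rose by 2.17. Gadd45a rose by 1.54 and Ccn2 by 1.45. Of 27 further feedback genes and ERK targets 16 rose and 1 fell, at a median of 0.71; Elf3 (3.71), Gprc5a (2.88), Socs3 (2.10) and Sprr1a (1.65) were the largest.

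The second comparison asked whether castration altered these transcripts in mutant mice. None of the 37 members passed the test, and neither did any of the 16719 genes (0.0% higher and 0.0% lower by limma); the smallest adjusted p was 0.0571. At an unadjusted p under 0.05 there were 5 members (13.5%) and 2620 genes. The median log2 fold change was -0.08 over the members and 0.01 over all genes. Among the members that rose in intact mutant over control prostates, Fos was at 9.60 ± 0.47 in castrated mutant and 9.81 ± 0.71 in intact mutant prostates, Egr1 at 11.53 ± 0.31 and 11.35 ± 0.30, and Dusp4 at 10.20 ± 0.43 and 9.98 ± 0.43 (mean ± SD, n = 6 each).

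Phlda3 came nearest to a change. Its castrated mutant arrays, at 9.24 to 10.13, were below all intact mutant arrays except replicate 5, at 9.90, and the difference was -0.58 ± 0.13 (adjusted p = 0.0824). It passed the test when castrated mutant replicate 1 (-0.61, adjusted p = 0.0462) or 5 (-0.60, adjusted p = 0.0497) was left out, and with array weights (-0.63, adjusted p = 0.0285), and under no other setting tried. The second Phlda3 probe gave -0.55 and was further from passing (adjusted p over all tested probes = 0.488). Phlda1 was also lower in value after castration (-0.60 ± 0.21, adjusted p = 0.202), as were Ier3 (-0.41 ± 0.23, adjusted p = 0.419) and Junb (-0.25 ± 0.11, adjusted p = 0.316). Dusp1 (-0.63 ± 0.33, adjusted p = 0.375) and Dusp6 (-0.35 ± 0.32, adjusted p = 0.651) were lower in value too, by less without intact mutant replicate 1 (-0.31 and -0.05). Dusp16 (0.29 ± 0.17, adjusted p = 0.420) and Phlda2 (0.34 ± 0.17, adjusted p = 0.352) were higher in value in castrated mutant mice. A p that misses the threshold does not show that castration left these levels alone.

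The third comparison set castrated mutant against intact control prostates, which differ in both genotype and castration and share their 3 controls with the first comparison. Of the 37 members 14 were higher (37.8%) and 6 lower (16.2%), against 20.0% and 24.6% of all tested genes. Calls with a change of at least 2-fold numbered 11 of 37 members (29.7%), beside 2289 of the 16719 genes. The members' median log2 fold change was 0.05 and that of all genes -0.03. Without the arrays high in seminal vesicle transcripts 7 members were higher and 3 lower. The calls lost, with no change of sign, were those of Dusp6 (1.30, adjusted p = 0.247), Fos (1.67, 0.102), Ier3 (1.11, 0.133), Egr1 (1.19, 0.0536), Phlda3 (0.64, 0.126), Dusp14 (0.27, 0.440), Dusp18 (adjusted p 0.135), Dusp23 (-1.67, 0.0520), Myc (-0.55, 0.0523) and Spred1 (-0.68, 0.309).

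Phlda1 was 5.37-fold (2.43 ± 0.26, adjusted p = 2.72e-06) and Dusp4 5.26-fold (2.40 ± 0.32, adjusted p = 2.25e-05) higher in castrated mutant than in control prostates. The other tested Dusp4 probes gave only 0.90 (adjusted p over all tested probes = 0.0214) and 0.17 (0.4615). Jun (1.55), Dusp6 (1.497), Fos (1.41), Dusp16 (1.30), Ier3 (1.27), Egr1 (1.18) and Junb (1.08) were more than 2-fold higher, and Errfi1 (0.93) and Phlda3 (0.76) rose less. The other Dusp6 probes gave 1.33 (adjusted p over all tested probes = 0.0093) and 0.53 (0.0563). The second Phlda3 probe did not pass at 0.62 (adjusted p over all tested probes = 0.271). Dusp2 was at least 1.49-fold higher. Dusp1 (0.67 ± 0.41, adjusted p = 0.198) and Dusp7 (0.19 ± 0.17, adjusted p = 0.401) did not pass the test, although all 6 castrated mutant arrays had more Dusp1 than any control; without intact mutant replicate 1 in the fit, the same Dusp1 difference gave an adjusted p of 0.0419.

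Dusp23 (-1.36 ± 0.26), Dusp8 (-1.26 ± 0.21), Dusp28 (-0.89 ± 0.13), Dusp26 (-0.87 ± 0.11, with 1 of 6 castrated arrays above background) and Myc (-0.53 ± 0.11) were lower in castrated mutant than in control prostates. Spred1 was lower too (-0.65 ± 0.23, adjusted p = 0.0325), but lost its call without any of 5 single arrays, control replicates 1, 2 and 3 and castrated mutant replicates 1 and 5 (-0.71 to -0.57). Dusp14 (0.34 ± 0.13, adjusted p = 0.0437) lost its call under 13 of 27 other settings. Whether the effect of castration on these genes differs between mutant and control mice was not tested, because it needs castrated controls.

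**Figure D4:**
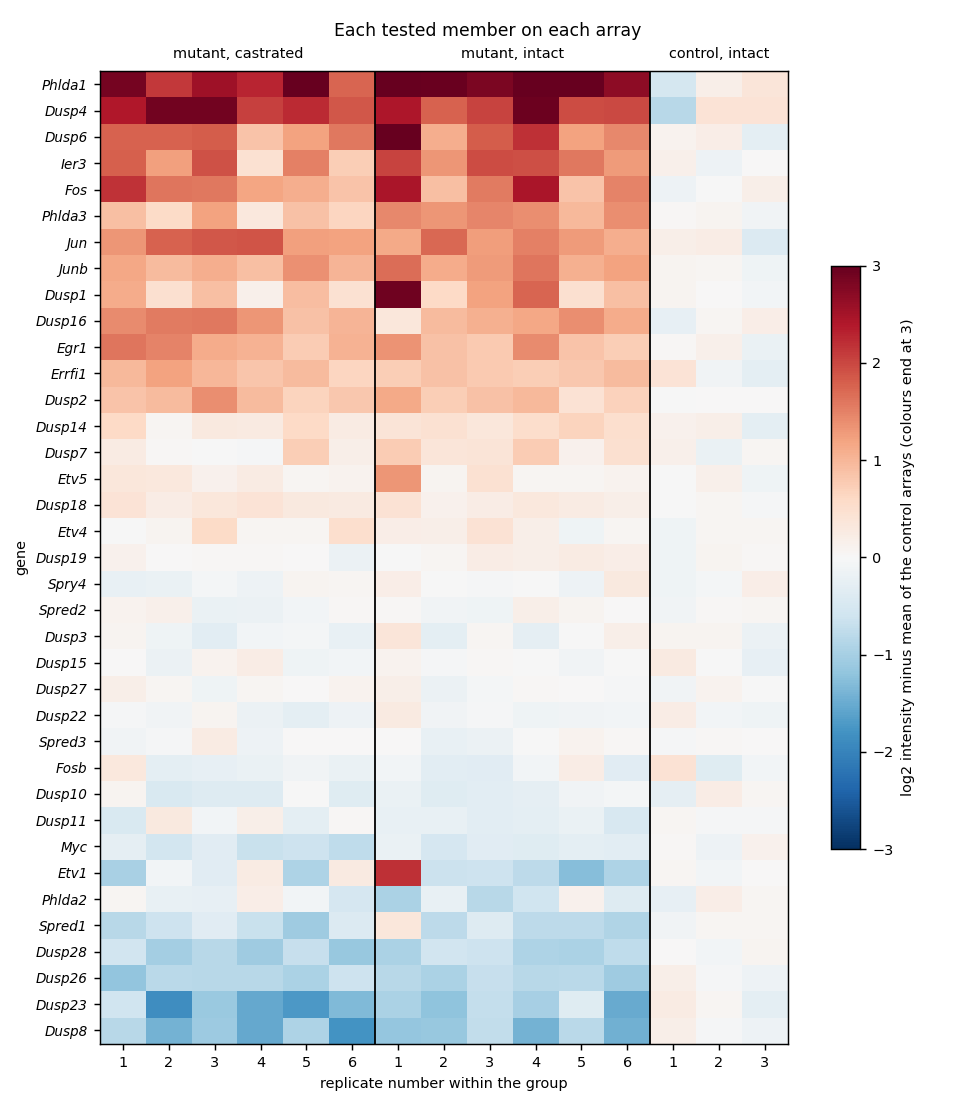
Log2 intensity minus the mean of the 3 control arrays for the 37 tested members (rows, ordered by the intact mutant over control difference) on each of the 15 arrays (columns, castrated mutant, intact mutant and control from left to right); colours end at 3, and higher values share the darkest red. The upper rows are red and the lowest rows blue across both mutant groups, and intact mutant replicate 1 stands out in Dusp6, Dusp1, Etv5 and Etv1.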

How the data were processed

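Total RNA of mouse anterior prostate was labelled with biotin and read on single-colour Illumina BeadArrays, per the labels' protocols. The values are the authors' deposited intensities for 45281 probes on 15 arrays, on a linear scale (how they corrected background and normalized is not given in the sources used here). Array medians were 151.35 to 152.47, and the lowest intensity was 105.78, so a background remains in them that shrinks the folds of dim genes. Between 42.4% and 48.2% of probes were above background per array, and the number of arrays limits precision. 15 signal columns of a deposited table without normalization are named by chip and position, were not tied to animals and were not used, apart from its gene symbols. Each array is labelled as a separate mouse, and replicate numbers only name arrays, so nothing was paired.

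Log2 intensities were fitted with limma 3.58.1 (R 4.3.3), using all 15 arrays and 1 mean for each group (12 residual degrees of freedom), eBayes, two-sided tests and Benjamini-Hochberg adjustment over 16719 genes, each read from its brightest probe above background on at least 3 arrays. Every adjusted p is from limma. The fit was tested on simulated data. An "at least" fold sets the group mean against each dimmer array's limit or measured value, whichever is higher. Symbols were updated through RefSeq (GRCm38.p6). The members, the gene lists and the alternatives were chosen with earlier results of these data known. Every member could be named; from other lists, the 4 called genes with the largest change. Values of the genes altered by design are not reported here. Alternatives were quantile, median and cyclic loess scaling, normexp (offset 16), no filter, a limit of 6 arrays, the mean of probes, array weights, trended robust eBayes, only the groups compared, each array left out, and fits without 3 castrated mice of high ID number or without arrays high in seminal vesicle transcripts.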

Additional observations from a re-analysis of the deposited data

Results flagged for a closer look

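In 6 of the 74 groups of 6 arrays looked at (castrated and intact mutant, 37 members), a single array lay far from the others by Dixon's gap test; chance flags about 1 in 20 groups. Among intact mutant arrays, replicate 1 was the highest for Etv1 (10.52, with the next at 7.70), Etv5 (8.80, with the next at 7.93) and Dusp22 (8.55, with the next at 8.25). It is the array with the high macrophage marker sum. Replicate 5 was the lowest intact mutant array for Phlda3 (9.90, with the next at 10.25). Among castrated mutant arrays, replicate 5 was the highest for Dusp7 (10.02, with the next at 9.53), and replicate 1 for Fosb (7.87, with the next at 7.46). Castrated mutant replicate 1 was the highest array of its group for 15 of 37 tested members (40.5%) and for 17.8% of all tested genes.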

How the results depend on the processing

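The counts of called members and genes stayed within 1.5 times of the reported ones under most settings, with these exceptions. Without the arrays high in seminal vesicle transcripts, which leaves 1 control array assumed to vary like the others, intact mutant over control gave 10 members and 3100 genes in place of 21 and 7284, and castrated mutant over control gave 10 members and 3102 genes in place of 20 and 7450. For castrated over intact mutant, with 0 members and 0 genes reported, array weights gave 1 member and 617 genes, and no filter on dim probes gave 0 members and 1 gene. Leaving out single arrays gave 0 to 1 members and 0 to 268 genes there (268 without castrated mutant replicate 1, 234 without replicate 5 and 1 without replicate 3). The same gave 16 to 22 members and 5987 to 7371 genes for intact mutant over control, and 18 to 21 members and 6114 to 7887 genes for castrated mutant over control.

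Refits were counted for 60 member differences, which left out some small printed ones, such as those of Spred2 and Spred3 from control. Of the 1616 refitted values of these 60, none changed sign, 55 lost a call and 13 gained one. The setting with the most lost calls was that without the arrays high in seminal vesicle transcripts, which leaves 1 control array. Leaving out control replicate 3 lost 7. The fits on signals without normalization and with chip as a block were not run, since their columns were not tied to animals. A fit without castrated arrays that stand apart in androgen-regulated genes was not run, since it would choose arrays by an outcome. Levels of the 6 untested members, and of those near the limit, are bounded by background.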
